A study of Manis javanica with 3 samples.

Results

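Enzymes of phase II conjugation were followed across the transcriptomes of the Malayan pangolin (Manis javanica), an ant- and termite-eating mammal. A gene was taken as a member when its symbol in the Swiss-Prot entry, or else in the KEGG entry, began with UGT, SULT or MGST, began with GST and a class letter (A, M, O, P, T, K or Z) and a digit, or was NNMT or TPMT. This rule found 66 of 24220 genes, of which 63 took their symbol from Swiss-Prot and 3 from KEGG. They carried 28 distinct symbols, and 12 of them were new genes that the authors had joined from aligned reads. By symbol they were grouped into 27 genes of glucuronidation (UGT), 15 of sulfation, 22 of glutathione transfer and 2 of methyl transfer. The first group includes 8 UGT3A genes and UGT2C1 gene20557, which by family or NR match may use another sugar.

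The study collected the liver, the salivary glands and the small intestine of the same wild adult female, which died while being rescued, and no treatment is stated. Polyadenylated RNA gave 1 paired-end library per tissue, read on an Illumina HiSeq, so no value below has a replicate check and no difference between tissues was tested. For each gene the deposited files give the number of fragments counted and FPKM. The study defines FPKM as fragments divided by transcript length and by the mapped fragments of the library. In such bulk tissue, fewer cells of a type and less RNA per cell cannot be told apart.

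Phase II enzymes attach a polar group to drugs, plant and insect compounds, steroids, bilirubin and other lipophilic molecules, which are then carried out of the cell into bile or urine. UDP-glucuronosyltransferases (UGTs) attach glucuronic acid from UDP-glucuronic acid at the endoplasmic reticulum, cytosolic sulfotransferases (SULTs) attach sulfate from the donor PAPS, glutathione S-transferases (GSTs) join glutathione to electrophiles, and the methyltransferases NNMT and TPMT use S-adenosylmethionine (SAM). Liver is the main organ of this chemistry in mammals, and the intestine is known as a further site of glucuronidation and sulfation.

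The counts summed to 14568778 in the liver library, 8318686 in salivary glands and 10158924 in the library labelled small intestine. A count of 0 allowed up to 0.206, 0.361 and 0.295 CPM (counts scaled to a common library size) in the same order. Hepatocyte markers had a median of 444 FPKM in the liver library and medians of at most 0.062 FPKM elsewhere. Of the 15 tested, 14 were at least 2-fold above both others in liver. Single ones were also read elsewhere. In salivary glands SERPINA1 had 120 FPKM and TTR gene10056 had 53.1 FPKM (35.1 in liver). In the library labelled small intestine ALB had 89.1 FPKM and AHSG had 25.9 FPKM. Salivary gland markers had a median of 34.9 FPKM in salivary glands and medians of at most 2.29 FPKM elsewhere. Of the 6 tested salivary gland markers, 3 were at least 2-fold above both others in salivary glands, while BPIFB1 (136163 FPKM), KRT14 (77.1 FPKM) and KRT5 (88.2 FPKM) were higher in the library labelled small intestine than in salivary glands (133, 34.9 and 55.0 FPKM). The library labelled small intestine went against its label. Its stomach markers had a median of 457 FPKM (0 in liver and 0.695 in salivary glands), 10 of the 11 of them tested were at least 2-fold above both other libraries, and its intestine markers had a median of 0.046 FPKM (0.103 in liver and 0.020 in salivary glands). FABP2, FABP1 and both LCT genes had 0 counts in all 3 libraries, so these genes do not tell the libraries apart. Among the stomach markers not tested, GAST also had 0 counts in all 3 libraries. GIF and the LIPF genes had at most 9 counts in any library. Of the 12 tested intestine markers, 4 were at least 2-fold above both others in this library (SLC5A1 gene6542, SLC15A1 and 2 LGR5 genes, at 1.94 FPKM or less). Another 4 were so in liver. These were SI gene10946 (114 FPKM, with 1 count in each other library), and ALPI, ANPEP gene3988 and SLC5A1 gene6060 at 2.77 FPKM or less. VIL1 gene24763 had 24.0 FPKM in the library labelled small intestine, against 21.2 in liver and 25.7 in salivary glands. The library labelled small intestine is called by its label throughout, and whether the source tissue differs from the label was not tested.

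All folds between libraries below were computed from counts scaled by TMM, a normalization that keeps most genes level between libraries, and levels of different genes were compared only in FPKM. The range given after a fold is the exact conditional binomial interval at 95%, which covers counting error only and no spread between animals or libraries. Reads amplified by PCR are not independent molecules, so the interval can be too narrow even for counting error. Where 1 of the libraries had a count of 0, it was set to 3 counts and the fold is given as a lower bound.

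More conjugation enzymes were expressed in the liver library than in the others. FPKM exceeded 1, the level at which the study took a gene as expressed, for 42 of the 66 members in the liver library, for 19 in salivary glands and for 21 in the library labelled small intestine. Over all 24220 genes these shares were 57.0%, 56.3% and 59.4%, against 63.6%, 28.8% and 31.8% of the members. In all 3 libraries this level was exceeded by 17 of the 66 members and by 11359 of all 24220 genes, a larger share. The 17 held 13 genes of glutathione transfer, 2 of sulfation, both of methyl transfer and 0 of glucuronidation. The members took 0.528% (Wilson 95% interval 0.524 to 0.531) of all counts in the liver library, 0.315% (0.312 to 0.319) in salivary glands and 0.112% (0.110 to 0.114) in the library labelled small intestine. Most of these counts came from NNMT alone. It had 52185 of the 76855 member counts in liver, 20811 of 26239 in salivary glands and 7608 of 11367 in the library labelled small intestine. The top gene of this last library, no member, took 23.0% of all its counts, which lowers the share of every other gene there.

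The 4 kinds of conjugation differed in how far they were spread over the tissues. Summed FPKM of the UGTs was 804 in the liver library, 1.61 in salivary glands and 2.90 in the library labelled small intestine. These sums run over gene models, so a gene split into several models would be counted more than once. The SULTs summed to 99.7, 22.4 and 38.2 FPKM, the glutathione transferases to 1093, 497 and 376 FPKM, and the methyltransferases to 1860, 1134 and 518 FPKM, in the same order. By scaled counts, the summed UGTs were 97.7-fold higher in the liver library than in the library labelled small intestine (72.2 to 136) and 192-fold higher than in the salivary gland library (129 to 300). The summed SULTs were 2.61-fold (2.35 to 2.90) and 4.08-fold (3.62 to 4.61) higher, and the summed glutathione transferases 2.88-fold (2.77 to 2.99) and 2.21-fold (2.14 to 2.28) higher. Single members made up different shares of these sums. In the liver library the member with the highest FPKM made up 27.9% of the UGT sum and 27.8% of the glutathione transferase sum. NNMT made up 99.4% of the methyltransferase sum in the liver library, SULT1C2 gene7421 made up 65.0% of the SULT sum there, and GSTP1 gene16878 made up 53.6% of the glutathione transferase sum in the salivary gland library.

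**Figure D1:**
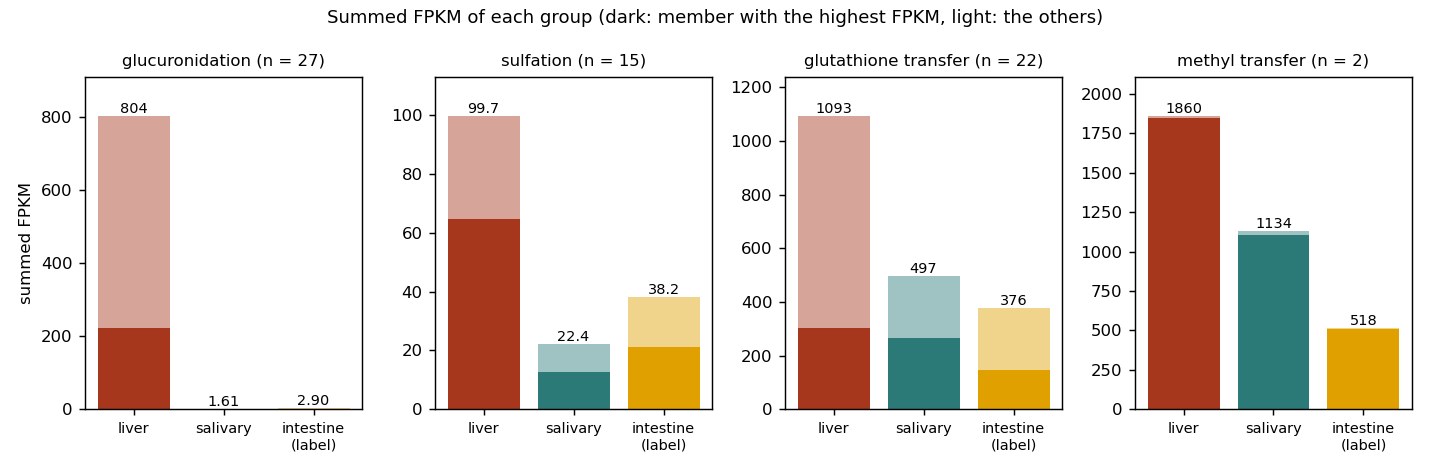
Summed FPKM (vertical axes, a separate scale in each panel) of the 4 groups of conjugation enzymes in the liver, salivary gland and small intestine (as labelled) libraries, 1 library each, with no error bars. The dark part of a bar is the member with the highest FPKM in that library and the light part the other members: the UGT sum was 804 in the liver library and at most 2.90 in the others, while the other groups kept sums of 22.4 or more in every library.

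For the comparison gene by gene, members with at least 10 counts in 1 of the libraries compared were used, and a 2-fold difference was taken as the threshold, with counts under 3 set to 3. Of the 66 members, 48 reached the count minimum in some library, and the other 18 (6 UGTs, 9 SULTs and 3 GSTs) did not. The minimum was reached in the liver library alone by 24 of the 48, including 20 of the 21 UGTs, so these genes entered the comparison only through the tissue in which they were high. Over all genes, 1518 of the 18037 tested reached it in the liver library alone. The counts of members higher in liver include such genes and describe the tested members only. The liver library was at least 2-fold above the library labelled small intestine for 35 of 48 members, where 23.9% of all tested genes were, and the opposite held for 7 members, where 24.2% of all tested genes were. Against the salivary gland library, the liver library was at least 2-fold higher for 33 of 46 members (24.9% of all tested genes) and lower for 4 (22.9%). These comparisons share the liver library. The salivary gland library was at least 2-fold above the library labelled small intestine for 7 of 24 members (16.9% of all tested genes) and below it for another 7 (20.6%).

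The median log2 fold of the tested members was 2.35 for liver over the library labelled small intestine and 2.53 for liver over salivary glands, against 0.08 and 0.07 over all tested genes. It was 0.33 and 1.34 for the SULTs, and 1.55 and 1.24 for the glutathione transferases. No median is compared for the UGTs, since 20 of the 21 entered through the liver library alone and most of their folds are lower bounds, and the medians over the members include these genes, so they describe the tested members only. Between salivary glands and the library labelled small intestine the median log2 fold was 0.17 for the members and 0.02 for all genes. A member at least 2-fold above both other libraries was found in the liver library for 29 of the 48 (15.8% of all tested genes), in the salivary gland library for 2 (9.00%) and in the library labelled small intestine for 5 (12.2%). The remaining 12 were not 2-fold above both others in any library. Of the 29 in the liver library, 20 were UGTs that entered through that library alone, so this count describes the tested members only.

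**Figure D2:**
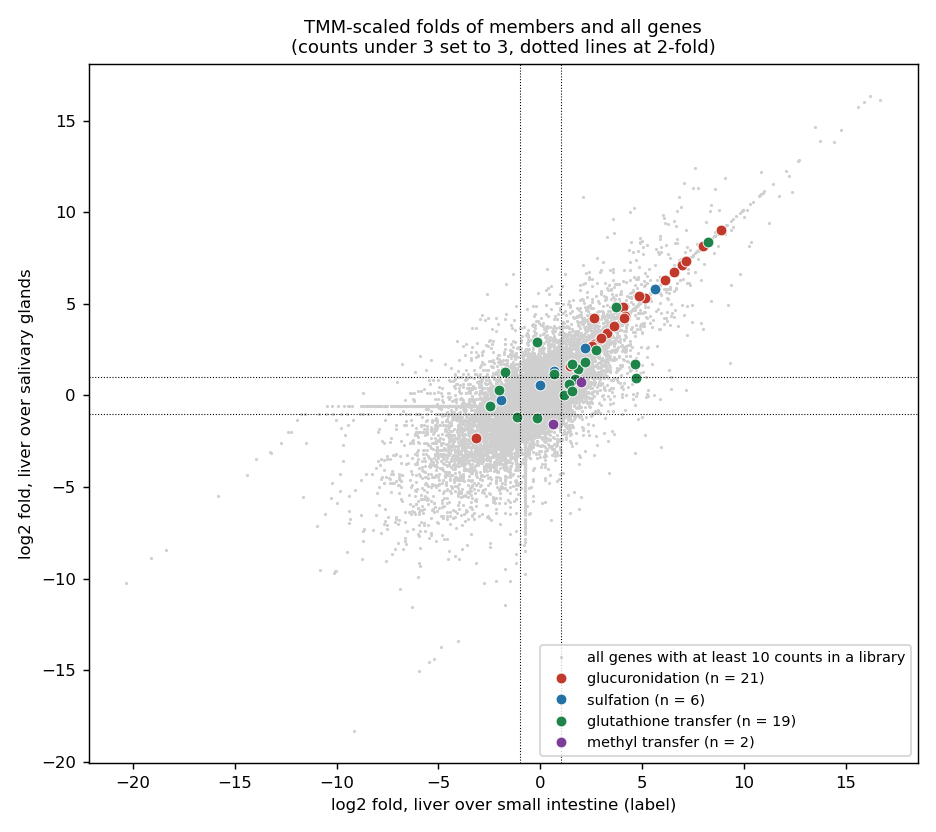
Log2 fold of TMM-scaled counts for liver over small intestine as labelled (horizontal axis) and liver over salivary glands (vertical axis), for all genes with at least 10 counts in a library (grey) and for the tested members coloured by group; dotted lines mark 2-fold, and both axes share the liver library. Of the 21 tested UGTs, 20 lay above 2-fold on both axes and 1 lay below on both. These 20 reached the count minimum in the liver library alone, which largely fixed their place, so they are not compared with other groups. The glutathione transferases were spread on both sides of the lines.

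Transcripts of the UGT group were read almost entirely in the liver library. Of the 27 UGT genes, 21 were above this FPKM of 1 in liver, 0 in salivary glands and 1 in the library labelled small intestine. Counts were found in the liver library alone for 16 UGT genes, 13 of them with at least 10 counts there. Over all members, 16 of 66 (24.2%) had at least 10 counts in the liver library and 0 in both others, a pattern seen in 1.59% of all genes. Hepatocyte markers FGB and FGG likewise had 0 counts in both other libraries, while the hepatocyte product ALB reached 89.1 FPKM in the library labelled small intestine and 0.194 FPKM in the salivary gland library.

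The UGT2 family, which handles steroids, bile acids and many drugs, gave most of the UGT transcripts. Leaving out UGT2C1, its 12 genes had 5402 counts in the liver library, 0 in salivary glands and 13 in the library labelled small intestine, so that the family was 245-fold higher in the liver library than in the library labelled small intestine (143 to 461) and at least 1196-fold higher than in the salivary gland library. The 3 UGT genes with the highest FPKM all carried the symbol UGT2B31, that of a dog enzyme of steroid and drug glucuronidation. UGT2B31 gene26478 had 1305 counts (224 FPKM) in the liver library and 0 counts in both others, and was at least 257-fold higher than in the library labelled small intestine and at least 289-fold higher than in the salivary gland library. UGT2B31 gene8057 had 2333 counts (205 FPKM) in the liver library and 0 in both others, which gave bounds of at least 459-fold and at least 517-fold. UGT2B31 gene18545 had 628 counts (158 FPKM) in the liver library and 0 in both others, with bounds of at least 124-fold and 139-fold. All 3 were thus read in the liver library alone. These gene models were short, at 673, 1044 and 458 bases, and each lay on a scaffold that held no other member.

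Further UGT2 genes followed at lower levels with the same pattern. UGT2B31 newGene_5083 had 357 counts (33.8 FPKM) in the liver library and 0 in both others. UGT2A3, whose human counterpart acts on bile acids, was the symbol of gene25685, with 487 counts (22.1 FPKM) in the liver library and 0 in both others, and of gene19396, with 179 counts (18.8 FPKM) in the liver library and 0 in both others. None of the 3 was read outside the liver library. The lower bounds for liver over the library labelled small intestine were 70.3-fold, 95.9-fold and 35.3-fold, in that order. The other UGT2 genes stayed under 10 FPKM in each library, and the counts of this family outside the liver library came from UGT2B31 gene21589 (84 counts in the liver library, 0 in the salivary gland library, 8 in the library labelled small intestine), UGT2B31 gene20950 (9, 0 and 3 counts) and UGT2B18 newGene_8627 (0, 0 and 2 counts). The last 3 genes of the family, UGT2B31 gene26652, UGT2B31 gene5490 and UGT2B33 gene19395, had 14, 4 and 2 counts in the liver library and 0 elsewhere.

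The UGT3A genes belong to a small family whose human members use sugars other than glucuronic acid, such as N-acetylglucosamine. Their 8 genes had 908 counts in the liver library, 4 in salivary glands and 0 in the library labelled small intestine, a difference of 151-fold against salivary glands (58.7 to 555) and of at least 179-fold against the library labelled small intestine. UGT3A1 gene18683 had 727 counts (44.1 FPKM) in the liver library and 0 in both others, at least 143-fold higher than in the library labelled small intestine. UGT3A1 newGene_7615, which lies beside it on the same scaffold, had 40 counts (21.1 FPKM) in the liver library and 0 in both others, with a bound of at least 7.88-fold. In the liver library 1 FPKM stood for 1.90 counts in newGene_7615 and for 16.5 counts in gene18683, so the levels of these neighbours rest on very different numbers of fragments. UGT3A1 newGene_7206, with a model of 227 bases, reached 3.74 FPKM on 2 counts. Of the other UGT3A1 genes, newGene_140, newGene_12530, gene25890 and gene3247 had 15, 29, 63 and 32 counts in the liver library and at most 3 elsewhere, and newGene_10163 had 0 in every library.

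The UGT1 family includes the enzymes that conjugate bilirubin and many phenols, and in mammals it is made from a complex locus with shared last exons. All 6 UGT1 genes exceeded an FPKM of 1 in the liver library, and together they had 631 counts there, 10 in salivary glands and 13 in the library labelled small intestine, a fold of 41.9 (22.6 to 87.8) and 28.7 (16.6 to 54.2). UGT1 newGene_13460 had 86 counts (21.7 FPKM) in the liver library and 0 in both others, a bound of at least 16.9-fold against the library labelled small intestine. UGT1 gene11925 was counted in every library, with 171 counts (15.8 FPKM) in liver, 4 counts (0.568 FPKM) in salivary glands and 6 counts (1.04 FPKM) in the library labelled small intestine. It was 16.8-fold higher in the liver library than in the library labelled small intestine (7.58 to 46.5) and 28.4-fold higher than in salivary glands (10.9 to 105). It was also the only UGT above an FPKM of 1 outside the liver library. The other 4 UGT1 genes had between 3.78 and 7.52 FPKM in the liver library and at most 0.432 FPKM elsewhere.

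Among the 21 tested UGTs, 1 ran the other way. Named after its values were seen, UGT2C1 gene20557 had 3 counts in the liver library, 10 in salivary glands and 16 in the library labelled small intestine, or 0.055, 0.240 and 0.405 FPKM. It was 9.03-fold higher in the library labelled small intestine than in liver (2.58 to 48.4) and 5.02-fold higher in salivary glands than in liver (1.29 to 28.4), at levels under an FPKM of 1 throughout. Its best match in the NR database was not a glucuronosyltransferase but 2-hydroxyacylsphingosine 1-beta-galactosyltransferase, an enzyme of galactolipid synthesis.

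**Figure D3:**
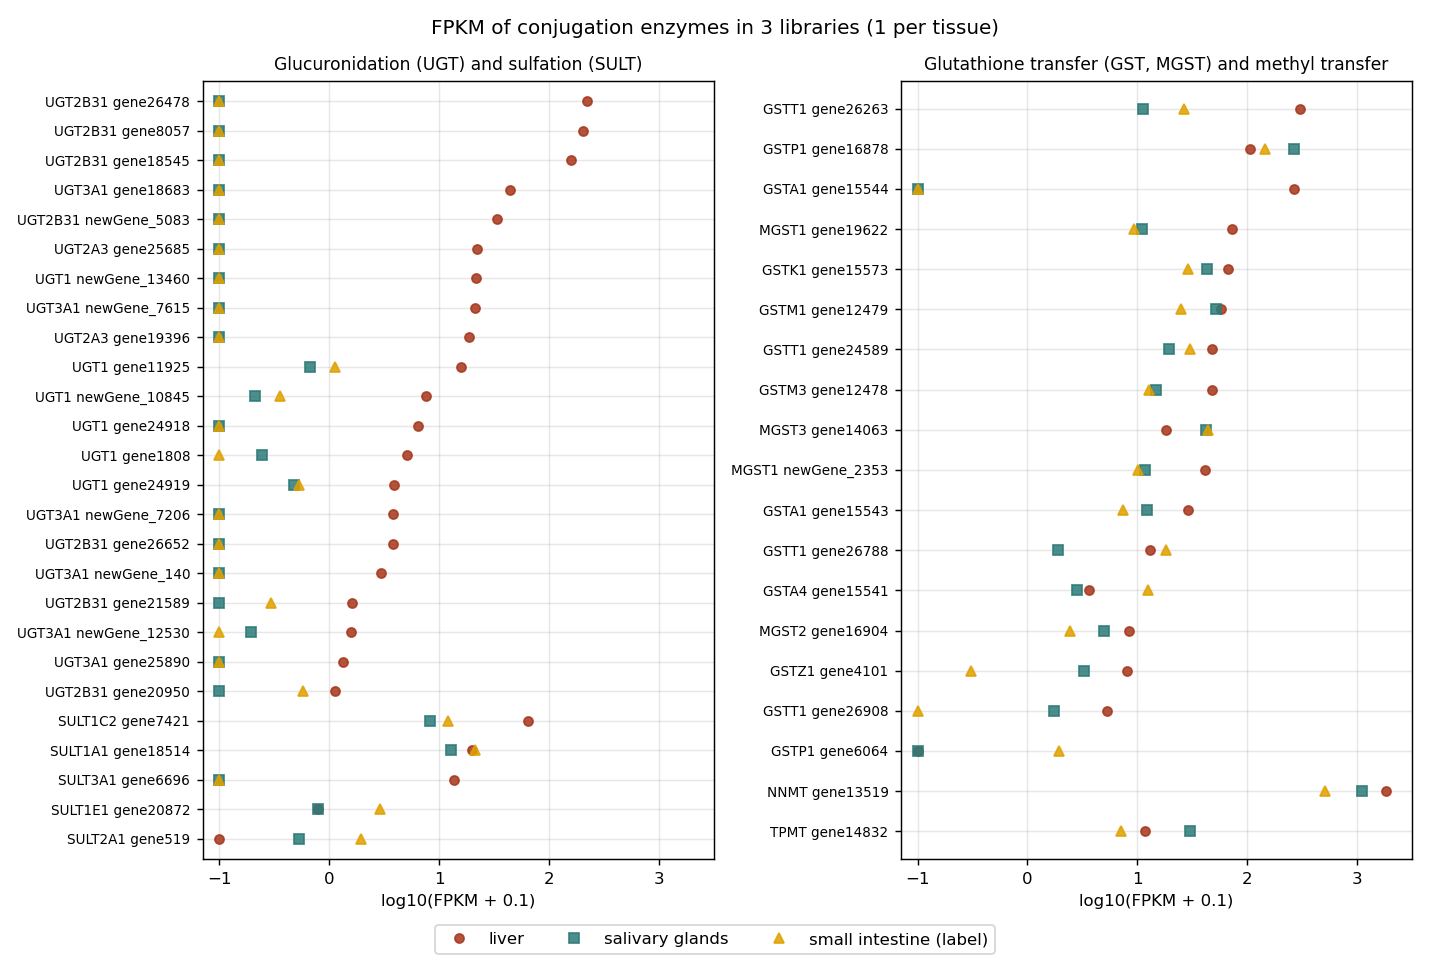
FPKM on a log10 scale, log10(FPKM + 0.1), of the 45 members above an FPKM of 1 in at least 1 of the 3 libraries (1 per tissue), ordered within each group by their highest FPKM; a value of -1 means an FPKM of 0. In the left panel the UGTs have liver points well to the right of the other 2 libraries, which mostly lie at 0 FPKM, while in the right panel 13 of the glutathione transferases have all 3 points above an FPKM of 1, spread to different degrees.

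The sulfotransferases held few expressed genes. Of 15 SULT genes, 7 (46.7%) had 0 counts in every library, against 13.0% of all genes, and 3, 2 and 4 were above an FPKM of 1 in liver, the salivary gland library and the library labelled small intestine, or 20%, 13.3% and 26.7% of them against 57.0%, 56.3% and 59.4% of all genes. The highest level was that of SULT1C2 gene7421, of a family that conjugates small phenols and some carcinogens, with 1326 counts (64.8 FPKM) in liver, 146 counts (8.20 FPKM) in salivary glands and 172 counts (11.97 FPKM) in the library labelled small intestine. It was 4.55-fold higher in the liver library than in the library labelled small intestine (3.88 to 5.37) and 6.03-fold higher than in salivary glands (5.08 to 7.21). Its match in the NR database was a SULT1C4-like protein. A second SULT1C2 model, gene22703, had 0 counts in every library.

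SULT1A1 gene18514, the phenol sulfotransferase, differed by less than 2-fold between any of the libraries. It had 310 counts (19.8 FPKM) in the liver library, 139 counts (12.7 FPKM) in salivary glands and 186 counts (21.2 FPKM) in the library labelled small intestine. The fold of liver over the library labelled small intestine was 0.985 (0.818 to 1.19), and it went above 1 when counts were scaled by library size only, so no order is given between these libraries. The fold of liver over salivary glands was 1.48 (1.21 to 1.82). SULT1A1 was the SULT with the highest FPKM in both the salivary gland library and the library labelled small intestine.

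SULT3A1 was the symbol of 7 genes, of which gene6696 alone had an FPKM above 1. It had 253 counts (13.5 FPKM) in the liver library and 0 in both others, at least 49.8-fold higher than in the library labelled small intestine and at least 56.0-fold higher than in salivary glands. It shares a scaffold with SULT3A1 gene6698 and gene6700, which had 0 counts in every library. Neighbouring copies of this symbol therefore differed between 253 and 0 counts in the same liver library. The remaining SULT3A1 genes had at most 19 counts in any library.

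SULT1E1 gene20872 and SULT2A1 gene519, singled out after their values were seen, were highest in the library labelled small intestine. SULT1E1, by name the estrogen sulfotransferase, had 29 counts in liver, 23 in salivary glands and 65 in the library labelled small intestine (0.684, 0.699 and 2.81 FPKM), 3.79-fold above liver (2.41 to 6.10) and 3.18-fold above salivary glands (1.95 to 5.36). SULT2A1, by name the hydroxysteroid sulfotransferase, had 0, 3 and 10 counts (0, 0.435 and 1.86 FPKM). Their NR matches were SULT4A1 and SULT2B1, so the symbols of both may stand for another member of the family. The markers of stomach moved with the same library, and their part in these values was not tested.

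Glutathione transferases were expressed in each library at shares not far from those of all genes. Of 22 genes, 16 were above an FPKM of 1 in liver, 15 in salivary glands and 14 in the library labelled small intestine, or 72.7%, 68.2% and 63.6% of them against 57.0%, 56.3% and 59.4% of all genes. Among the 19 tested, 7 were at least 2-fold above both others in the liver library, 1 in salivary glands and 3 in the library labelled small intestine (15.8%, 9.00% and 12.2% of all tested genes), and 8 were in no library 2-fold above both others.

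The liver library was led by theta and alpha class enzymes, which act on small halogenated molecules and on lipid peroxidation products. GSTT1 gene26263 had 5912 counts (304 FPKM) in liver, 140 counts (11.1 FPKM) in salivary glands and 268 counts (26.4 FPKM) in the library labelled small intestine. It was 13.0-fold higher in the liver library than in the library labelled small intestine (11.5 to 14.8) and 28.0-fold higher than in salivary glands (23.7 to 33.4). GSTA1 gene15544 had 1507 counts (264 FPKM) in the liver library and 0 in both others, at least 297-fold and at least 334-fold higher. It was the glutathione transferase read at a high level in the liver library and not at all elsewhere. The neighbouring GSTA1 gene15543, 1978 bases away on the same scaffold, had 375 counts (28.5 FPKM) in liver, 135 counts (12.1 FPKM) in salivary glands and 69 counts (7.36 FPKM) in the library labelled small intestine. It was 3.21-fold higher in liver than in the library labelled small intestine (2.48 to 4.21) and 1.84-fold higher than in salivary glands (1.51 to 2.26), and its NR match was a GSTA3-like protein.

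The other alpha class member of that scaffold, singled out after its values were seen, had its highest level elsewhere. GSTA4 gene15541, by name the enzyme that conjugates the lipid peroxidation product 4-hydroxynonenal, had 57 counts (3.52 FPKM) in the liver library, 31 counts (2.70 FPKM) in salivary glands and 137 counts (12.3 FPKM) in the library labelled small intestine. It was 4.07-fold higher in the library labelled small intestine than in liver (2.97 to 5.64) and 4.97-fold higher than in salivary glands (3.34 to 7.59). The adjoining gene15542, no member by symbol but a GSTA4-like protein by its NR match, had 0, 26 and 26 counts (0, 3.06 and 3.78 FPKM). The 3 alpha class members thus lay on scaffold NW_016539281.1 from base 68500 to 151263 of the authors' coordinates, and each had another distribution over the 3 libraries.

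The pi class enzyme GSTP1, the form best known from epithelia outside the liver, was the glutathione transferase with the highest FPKM in salivary glands and the library labelled small intestine. GSTP1 gene16878 had 1208 counts (106 FPKM) in liver, 1904 counts (267 FPKM) in salivary glands and 798 counts (146 FPKM) in the library labelled small intestine. The salivary gland library was 2.37-fold above liver (2.21 to 2.55) and 2.12-fold above the library labelled small intestine (1.95 to 2.31), though the latter fell under 2-fold when taken from FPKM. Liver and the library labelled small intestine were near each other, with a fold of 0.894 (0.817 to 0.979) that turned above 1 under scaling by library size only. A second gene of that symbol, gene6064, had 0, 0 and 10 counts and matched hematopoietic prostaglandin D synthase in the NR database.

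The mu and kappa class enzymes were above 10 FPKM in every library. GSTM1 gene12479 had 936 counts (57.7 FPKM) in liver, 615 counts (51.8 FPKM) in salivary glands and 248 counts (25.1 FPKM) in the library labelled small intestine, 2.23-fold higher in liver (1.94 to 2.58) and 2.21-fold higher in salivary glands (1.90 to 2.57) than in the latter. GSTM3 gene12478, on the same scaffold, had 504 counts (47.7 FPKM) in liver, 125 counts (14.8 FPKM) in salivary glands and 83 counts (12.7 FPKM) in the library labelled small intestine, and was 3.59-fold (2.84 to 4.58) and 2.68-fold (2.20 to 3.28) higher in liver. Thus GSTM3 was highest in the liver library, while liver and salivary glands did not differ for GSTM1 beyond counting error, with a fold of 1.01 (0.912 to 1.12) that turned under 1 with library size only. GSTK1 gene15573, a form found in mitochondria and peroxisomes, had 1162 counts (67.1 FPKM) in liver, 495 counts (42.5 FPKM) in salivary glands and 263 counts (28.9 FPKM) in the library labelled small intestine, a fold of 2.61 (2.28 to 2.995) for liver over the last.

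Further theta class genes differed among themselves. GSTT1 gene24589 had 2347 counts (48.0 FPKM) in liver, 679 counts (19.3 FPKM) in salivary glands and 859 counts (30.2 FPKM) in the library labelled small intestine, and was 2.30-fold higher in liver than in salivary glands (2.11 to 2.504). That fold was just under 2 with library size only. GSTT1 gene26788, a theta-2B-like protein by its NR match, had 150 counts (12.8 FPKM) in liver, 13 counts (1.78 FPKM) in salivary glands and 101 counts (17.9 FPKM) in the library labelled small intestine. It was low in salivary glands alone, 7.66-fold under liver (4.35 to 14.7) and 8.73-fold under the library labelled small intestine (4.88 to 17.0).

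Some theta class values cannot be assigned to 1 gene with certainty. GSTT1 gene26908 (126, 25 and 0 counts in liver, salivary glands and the library labelled small intestine) and GSTT1 newGene_13973 (11, 1 and 22 counts) lie 116 bases apart on opposite strands of the same scaffold, and reads were aligned without regard to strand. Both were named after their values were seen, as were the next genes, given to account for the group. MGST2 gene16904 had 154, 86 and 31 counts (8.34, 4.89 and 2.33 FPKM) and GSTO1 gene21674 had 15, 0 and 0 counts, while GSTT1 gene26262, GSTO1 newGene_13627 and GSTZ1 gene26136 had at most 1 count in any library.

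The membrane-bound MGSTs protect the endoplasmic reticulum and mitochondria from peroxidation and, in the case of MGST2 and MGST3, are related to leukotriene C4 synthase. MGST1 gene19622 had 480 counts (72.3 FPKM) in liver, 58 counts (10.99 FPKM) in salivary glands and 43 counts (9.22 FPKM) in the library labelled small intestine, and was 6.59-fold (4.82 to 9.23) and 5.50-fold (4.18 to 7.35) higher in liver than in the library labelled small intestine and salivary glands. MGST1 newGene_2353, on another scaffold, had 291 counts (41.1 FPKM), 54 counts (11.8 FPKM) and 38 counts (9.99 FPKM), a fold of 4.52 (3.22 to 6.52) and 3.58 (2.67 to 4.88). Both MGST1 models were thus highest in liver. Reads of such like-named models could have been split between them in counting.

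MGST3 gene14063 was lowest in the liver library. It had 172 counts (18.0 FPKM) in liver, 263 counts (42.0 FPKM) in salivary glands and 223 counts (44.0 FPKM) in the library labelled small intestine. It was 2.30-fold higher in salivary glands (1.89 to 2.81) and 2.19-fold higher in the library labelled small intestine (1.79 to 2.69) than in liver, and the latter fell under 2-fold with library size only. Salivary glands and the library labelled small intestine were not told apart, with a fold of 1.05 (0.874 to 1.26). Of the genes outside the rule for naming, GSTZ1 gene4101, an enzyme of tyrosine breakdown also known as maleylacetoacetate isomerase, had 173, 59 and 4 counts (7.97, 3.20 and 0.204 FPKM), 25.6-fold higher in liver than in the library labelled small intestine (9.80 to 94.8).

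NNMT, which methylates nicotinamide, was the most abundant conjugating enzyme in all 3 libraries. NNMT gene13519 had 52185 counts (1848 FPKM) in liver, 20811 counts (1103 FPKM) in salivary glands and 7608 counts (511 FPKM) in the library labelled small intestine. By FPKM it ranked 27 among all genes in the liver library, 47 in salivary glands and 125 in the library labelled small intestine. It was 4.05-fold higher in liver than in the library labelled small intestine (3.96 to 4.15), 1.67-fold higher in liver than in salivary glands (1.64 to 1.69) and 2.43-fold higher in salivary glands than in the library labelled small intestine (2.37 to 2.498).

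TPMT, the methyltransferase of thiopurine drugs, was highest in the salivary gland library. TPMT gene14832 had 204 counts (11.6 FPKM) in liver, 405 counts (30.2 FPKM) in salivary glands and 79 counts (6.94 FPKM) in the library labelled small intestine. Salivary glands were 2.99-fold above liver (2.52 to 3.55) and 4.56-fold above the library labelled small intestine (3.58 to 5.88). With GSTP1 it was 1 of the 2 members at least 2-fold above both others in the salivary gland library.

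Genes that supply the donors, cleave the conjugates or regulate the enzymes were followed by a list of their symbols, which found 81 genes, 64 of them tested. Of these 64, 18 were at least 2-fold above both others in the liver library (15.8% of all tested genes), 7 in salivary glands (9.00%) and 7 in the library labelled small intestine (12.2%), the last 2 counts being near the share over all genes. The liver library was at least 2-fold above the library labelled small intestine for 24 (23.9% of all tested genes) and below it for 15 (24.2%), and above the salivary gland library for 23 (24.9%) and below it for 15 (22.9%). For these pairs the percentages are over genes tested in that pair, while the 64 were tested in any library. Read only roughly for that reason, the counts below were also near the share over all genes. Symbols of the list that found no gene, among them SLC35D1, BAAT and HNF4A, were not analysed here.

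For the glucuronic acid donor, UGDH, which makes UDP-glucuronic acid, had 94.1 FPKM in liver, 9.04 in salivary glands and 12.8 in the library labelled small intestine, and was 6.31-fold higher in liver than in the last (5.61 to 7.11). SLC35B1, of a family of nucleotide sugar transporters, had 86.5, 35.3 and 27.7 FPKM, and UGP2, which makes UDP-glucose, had 40.6, 49.2 and 8.43 FPKM. The first pair was highest in liver and UGP2 was not. GUSB, the lysosomal beta-glucuronidase that removes glucuronic acid, had 11.7, 17.1 and 16.5 FPKM.

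Of the 11 tested genes of sulfate donor supply, 1 was highest in liver and 1 in the library labelled small intestine, against 15.8% and 12.2% of all tested genes. PAPSS1, a PAPS synthase, was the symbol of gene22637 with 9.95, 16.7 and 17.7 FPKM and of gene3350 with 10.9, 14.0 and 15.6 FPKM in liver, salivary glands and the library labelled small intestine. The PAPS carrier SLC35B2 had 15.9, 17.1 and 11.5 FPKM, and SLC26A2 gene19996, of a family of sulfate and anion transporters, had 6.41, 10.9 and 20.2 FPKM. None of these 4 genes was highest in the liver library. PAPSS2, singled out after its values were seen, had 728, 31 and 453 counts (12.7, 0.685 and 13.3 FPKM) and was 15.6-fold higher in liver than in salivary glands (10.9 to 23.1). Both named genes of sulfate ester cleavage were highest in salivary glands: SUMF1, which activates sulfatases, had 13.8, 43.9 and 15.2 FPKM, and the arylsulfatase ARSA had 5.35, 16.2 and 5.12 FPKM.

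Of the 16 tested genes of glutathione supply and turnover, 5 were highest in liver, 4 in salivary glands and 2 in the library labelled small intestine, where 15.8%, 9.00% and 12.2% of all tested genes were. CTH and CBS, which make cysteine from homocysteine, had 475, 64.7 and 22.9 FPKM and 66.0, 24.3 and 31.7 FPKM in liver, salivary glands and the library labelled small intestine. CTH was 18.3-fold higher in liver than in the last (16.4 to 20.5). GCLM, the modifier subunit of glutamate-cysteine ligase, had 38.8, 4.43 and 3.05 FPKM, a fold of 7.89 (6.28 to 10.03). The aminopeptidase ANPEP gene13566 was lowest in liver, with 7.80, 22.3 and 19.7 FPKM.

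For the methyl donor, MAT1A, the SAM synthetase of hepatocytes, had 69587 counts (1176 FPKM) in the liver library and 0 in both others. MAT2A, the form of other tissues, had 31.7, 93.6 and 62.5 FPKM in liver, salivary glands and the library labelled small intestine. MAT1A was thus highest and MAT2A lowest in liver. AHCY, which clears the product S-adenosylhomocysteine, had 22.3, 7.81 and 5.99 FPKM, and the related AHCYL2 gene12474 had 15.2, 20.1 and 18.5 FPKM.

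Other enzymes of detoxification differed in their tissue as well. GNMT, a SAM-dependent glycine methyltransferase, had 130, 25.1 and 15.6 FPKM, and the epoxide hydrolase EPHX2 gene6408 had 40.8, 2.88 and 1.35 FPKM, both highest in liver. The microsomal epoxide hydrolase EPHX1 had 978, 1368 and 1009 counts (16.8, 62.5 and 54.0 FPKM). By scaled counts, salivary glands were 2.11-fold above liver for EPHX1. The library labelled small intestine was 1.75-fold above liver, under the 2-fold threshold, so its FPKM differ more than its counts. Among regulators, NFE2L2, the transcription factor that controls many GST genes, had 38.1, 31.2 and 38.7 FPKM, and its inhibitor KEAP1 gene21307 had 31.3, 17.0 and 16.9 FPKM. NR1I2, the pregnane X receptor of drug response, singled out after its values were seen, had 377 counts in liver, 0 in salivary glands and 1 in the library labelled small intestine.

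**Figure D4:**
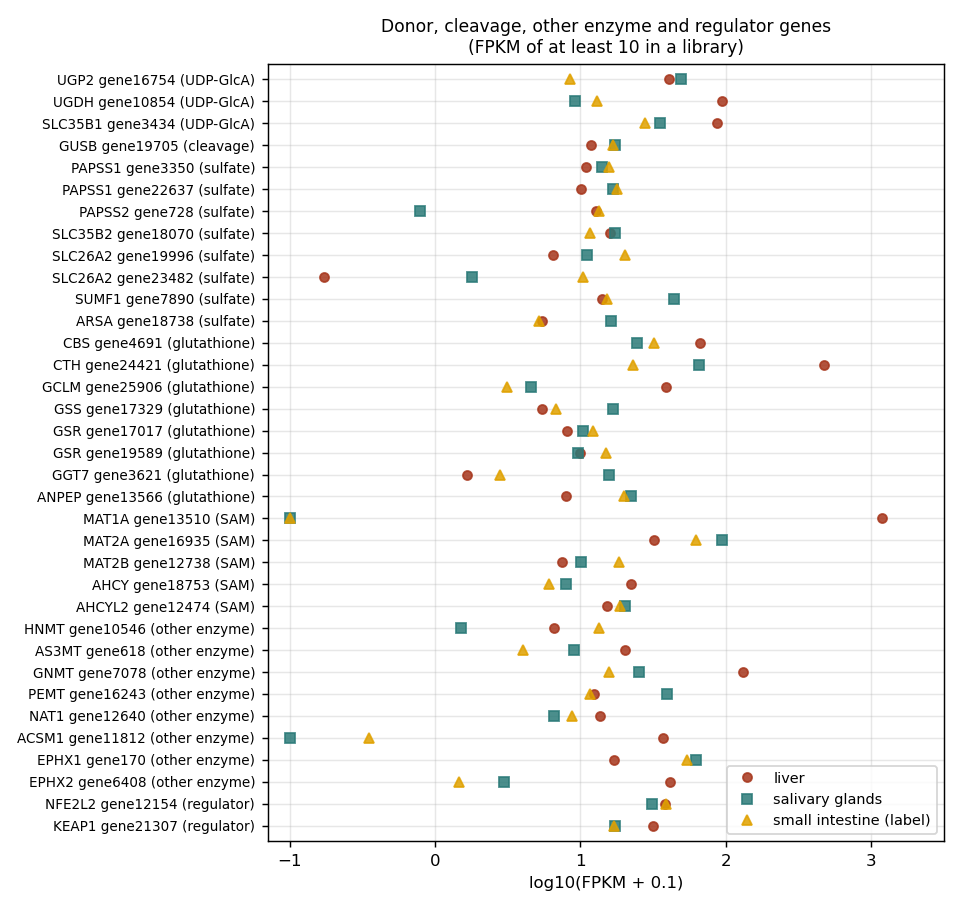
FPKM on a log10 scale, log10(FPKM + 0.1), of 35 genes of donor supply, conjugate cleavage, other detoxification and regulation with an FPKM of at least 10 in at least 1 of the 3 libraries (1 per tissue), with the list of each gene in brackets; -1 means an FPKM of 0. MAT1A lies at 1176 FPKM in the liver library and at 0 in the others, CTH, UGDH, GCLM and EPHX2 have liver points to the right, and NFE2L2 has almost the same level in all libraries.

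The genes of glucuronidation often stood alone in the deposited annotation. The 66 members lay on 54 scaffolds and the 27 UGT genes on 24, and 15 of these UGT genes were the only gene of their scaffold, as were 2 of 15 SULTs, 5 of 22 glutathione transferases and 5619 of all 24220 genes. The median length of a UGT model was 1011 bases, near the 1078 bases of the SULTs and the 1066.5 bases of the glutathione transferases and under the 2251 bases over all genes, and 9 of the 27 were new genes. Whether models of the same symbol are pieces of the same gene was not tested. The count of UGT genes is thus a count of models, and their summed FPKM and its shares are over models. On a scaffold with another member lay 6 of the 27 UGTs, 7 of the 15 SULTs and 9 of the 22 glutathione transferases, with GSTM3 and GSTM1 on NW_016536022.1, 3 SULT3A1 genes on NW_016531346.1 and 2 SULT1B1 genes, both at 0 counts in every library, on NW_016534186.1.

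Found instead by the product name of the NR match, the members numbered 64, of which 63 were the same genes. The 3 genes found by symbol only were UGT2C1 gene20557, UGT3A1 gene25890 and GSTP1 gene6064, and the gene found by NR name only was gene15542. Symbols of the GSTM1 gene (Mu 4 by its NR match), of SULT3A1 gene10097 (SULT6B1-like) and of several GSTT1 genes (theta-4-like or theta-2B-like) also differed from the NR names, so a symbol here can stand for a paralog.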

How the data were processed

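RNA of liver, salivary glands and small intestine of 1 adult female was measured in 1 library each. The authors aligned cleaned reads with TopHat2 (unstranded) to the M. javanica genome and joined unannotated reads into new genes with Cufflinks. The deposited counts are whole, unscaled fragments per gene, and the tool that made them is not given in the sources used here. FPKM was used as deposited. The study defines it as fragments divided by mapped fragments and transcript length, but the deposited counts and lengths alone do not give it. In the liver library 1 FPKM stood for 1.90 counts in UGT3A1 newGene_7615 (753 bases) and for 9.54 counts in UGT2A3 gene19396 (765 bases). The source of this difference was not tested. A further score deposited by the authors, a scaled count, served only as a check on the counts. The annotation gave Swiss-Prot, KEGG and NR matches. The genome build is not named, so positions are the authors' own, and 0 gene identifiers matched the RefSeq table at hand.

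TMM factors came from edgeR 4.0.16 and alternative size factors from DESeq2 1.42.0 in R 4.3.3, the rest from scipy 1.17.1, numpy 2.4.6 and pandas 2.3.3 under Python 3.11.15, with figures by matplotlib 3.10.9. The study's 2-fold threshold was kept and its test between libraries dropped, since 1 library per tissue gives no replicates. Genes needed 10 counts in 1 library compared, and counts under 3 were set to 3. Total counts ranged from 8318686 to 14568778, and intervals are exact or Wilson at 95%. The fold calculation was tested on simulated data.

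Members and lists were chosen with earlier results of these data known. Members with an FPKM of at least 10 in a library, at most 12 per group, and at most 4 genes per pathway list were named, other names being marked as chosen after their values were seen. A gene of the pathway lists is counted but not reported here. Alternatives were FPKM thresholds of 0.5 and 5, TPM, membership by NR name, new genes left out, library size only, DESeq2 size factors, folds of FPKM (pseudocount 0.1), no count minimum, 50 counts, 4-fold, and a counting interval beyond 2-fold.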

Additional observations from a re-analysis of the deposited data

How the results depend on the processing

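With 1 library per tissue no replicate could be left out, and all limits are those of single libraries. No paired analysis was possible because each tissue has a single library and no result comes from a test. Of 96 recomputed counts of members, 81 stayed within 1.5 times the reported count, among them all counts of members above the FPKM threshold and of members at least 2-fold higher in the liver library, and 15 moved, with the cause not tested. With at least 50 counts required, members higher in the library labelled small intestine fell from 7 to 3 against liver and from 7 to 4 against salivary glands, and those highest in it from 5 to 2. With a 4-fold threshold these counts were 4, 3 and 1, members higher in salivary glands were 1 against liver (4 as reported) and 3 against the library labelled small intestine (7 as reported), and 0 members were highest in salivary glands (2 as reported). With a counting interval wholly beyond 2-fold, salivary glands were above liver for 2 members and above the library labelled small intestine for 4, the latter was above salivary glands for 4, and 1 member was highest in salivary glands and 2 in the library labelled small intestine. By folds of FPKM, 1 member was highest in salivary glands. Of 70 log2 folds of named members, DESeq2 size factors moved none by more than 0.012 and changed 0 directions. Library size only moved them by -0.22 to 0.46, as it did the median of all genes (to 0.32, -0.15 and 0.47 for liver over the library labelled small intestine, liver over salivary glands and salivary glands over the library labelled small intestine), and changed 5 directions: liver over the library labelled small intestine for GSTP1, GSTT1 gene26788 and SULT1A1, liver over salivary glands for GSTM1, and salivary glands over the library labelled small intestine for SULT1C2. Folds of FPKM changed 1 direction, salivary glands over the library labelled small intestine for MGST3.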
